A study of Mus musculus with 2 samples.

Results

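The genes described are 34 subunits and activators of the constitutive proteasome, taken by name from a fixed list: 7 alpha and 7 beta subunits of the 20S core particle, 5 ATPases and 11 non-ATPase subunits of the 19S regulatory particle, and 4 activators. The list leaves out the immunoproteasome subunits. All 34 were found by Entrez identifier among the 15605 genes that the deposited files list between them. RNA came from peritoneal macrophages, phagocytes resident in the abdominal cavity, of C57BL/6 mice aged 6 to 8 weeks. One group was wild type and the other was lgmn-/-, lacking legumain, a lysosomal protease that cleaves after asparagine. Before RNA was taken, macrophages of both groups shared a culture with EO771, a mammary carcinoma line of the mouse, over 4 days. There was 1 library per genotype. The labels do not say how many mice gave cells to a library, or whether a membrane separated the cell types.

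The proteasome degrades proteins tagged with ubiquitin chains in the cytosol and nucleus. Its barrel-shaped core holds the proteolytic beta subunits between outer rings of alpha subunits, and the regulatory particle at its ends binds, unfolds and feeds in the tagged protein. In macrophages the core also makes peptides for MHC class I, and interferon gamma brings in an alternative set of catalytic subunits, the immunoproteasome, together with the PA28 alpha and beta activators.

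A single library per group allows no replicate check of any difference, and p-values were not computed. Higher and lower describe these 2 libraries only. A log2 ratio is knockout over wild type, from estimated read counts scaled between the libraries with 1 scaled count added. Its 95% interval is exact (Clopper-Pearson) and covers counting error only. The wild type library held 11885784 estimated counts and the knockout library 11740202. Lgmn had 23550 estimated counts in wild type and 426 in knockout, so the order of the libraries matches their labels. All 9 macrophage markers looked for were listed in both libraries, with a summed FPKM of 19262 in wild type and 17385 in knockout, most of it from Lyz2 (13192 and 12481) and Cd68, both lower in knockout. Fcgr1 (240 and 228) was lower too. Csf1r (83.8 and 193), Mertk (5.86 and 16.3), Adgre1 (67.3 and 111), Itgam (66.7 and 121), Cd14 (417 and 455) and Mrc1 (17.8 and 24.7) had the higher FPKM in knockout. The 9 had a median log2 ratio of 0.23 with 1 at least 2-fold higher. FPKM is the authors' level per transcript length and library size.

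Transcripts of genes that mark other cells were present too. Of 13 fibroblast markers all were listed, with a summed FPKM of 142 in wild type and 37.0 in knockout, and 9 of the 10 with enough counts were at least 2-fold lower. The exception was Thy1, with the higher FPKM in knockout (6.67 and 9.56). Lum, Pdgfrb and Postn had at most 5 counts in a library, and Tagln (38.1 and 6.37) and Sparc (34.7 and 6.59) had the highest FPKM in wild type. Summed FPKM of 12 T and NK cell markers was 158 and 299, most of it from the granzymes Gzma and Gzmb. For 5 neutrophil markers it was 86.4 and 111, most of it from S100a8 (361 and 456 counts). Its partner S100a9 had 0 and 1 counts, Mpo 0 and 1, Ly6g 5.62 and 11.65, and Cxcr2 103 and 106. The sum therefore rests on S100a8 and is a weak sign of neutrophils. Summed FPKM of 5 dendritic cell markers was 0.69 and 2.80, with Clec9a at 13 and 74 counts, and that of 4 B cell markers 1.40 and 2.51. Of 10 markers of epithelial carcinoma cells, 4 were listed in neither library (Krt14, Krt5, Cldn3 and Cldn4), and the sum was 5.33 and 1.17, most of the former from Krt19. The part these cells had in the proteasome values was not tested. In bulk RNA, fewer cells of a type and less RNA per cell cannot be told apart.

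The constitutive proteasome was expressed at nearly the same level in both libraries, with most of its subunits slightly lower in the knockout library. None of the 34 members differed by 2-fold. Of the 9498 genes that reached 50 estimated counts in at least 1 library, 1.74% were at least 2-fold lower and 6.05% at least 2-fold higher. At 1.5-fold, 1 member was lower, the lid subunit gene Psmd8, where 6.39% of all genes were. At the same threshold 1 member was higher, the activator gene Psme4, where 16.4% of all genes were. All 34 members passed the minimum of 50 counts, and the smallest count of any was 299, for Psme4 in the wild type library.

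A log2 ratio below 0 was found for 30 of the 34 members, against 50.1% of all genes tested. The median of the members was -0.29 and their middle 50% lay between -0.39 and -0.17. Over all genes the median was -0.00061 and the middle 50% lay between -0.29 and 0.39. The counting interval lay below 0 for 29 members, spanned 0 for 4 (Psmd3, Psmd6, Psme1 and Psme2) and lay above 0 for 1 (Psme4). The share of all genes with an interval below or above 0 was not computed, so these counts do not set the members apart from other genes.

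These signs rest on the scaling between the libraries. Scaling by library totals moved the median of all genes by 0.24, and 7 members then went from below to above 0: Psma4, Psma6, Psmb2, Psmb3, Psmb4, Psmb5 and Psmd6. A change of scaling shifts all log2 ratios by nearly the same amount, so it cannot change how far the members lie from all genes. The median of the members minus that of all genes was -0.28 with library totals and -0.29 with the main scaling. Subtracting a trend on transcript length, described next, made it -0.065.

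Transcript length moved with the ratios as well. Across all genes tested the log2 ratio had a Spearman rho of 0.61 with length, a description across genes of the same 2 libraries. When genes were divided by length into 10 groups, the group of shortest transcripts, up to 1083 bases, had a median of -0.37, and the group of longest, from 5921 bases, one of 0.77. Proteasome transcripts are mostly short: the median length of the members was 1326 bases, and 28 of 34 fell in the 3 groups of shortest transcripts. The 12 members in the group of shortest transcripts had a median log2 ratio of -0.21, above that of the group. The 9 members between 1527 and 1915 bases had a median of -0.37, below the -0.20 of their length group. Across the 34 members the Spearman rho of the log2 ratio with length was -0.22, and without Psme4 it was -0.34. Both are opposite in sign to the rho of all genes. With the length trend subtracted, the median of the members was -0.08 and that of all genes -0.01. Then 20 of 34 members were below 0, against 51.1% of all genes. At 1.5-fold 1 member, Psmd8, was lower on this scale, against 6.33% of all genes, and 0 were higher, against 7.74%. At 2-fold the members numbered 0 in either direction, against 1.90% of all genes lower and 2.14% higher.

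**Figure D1:**
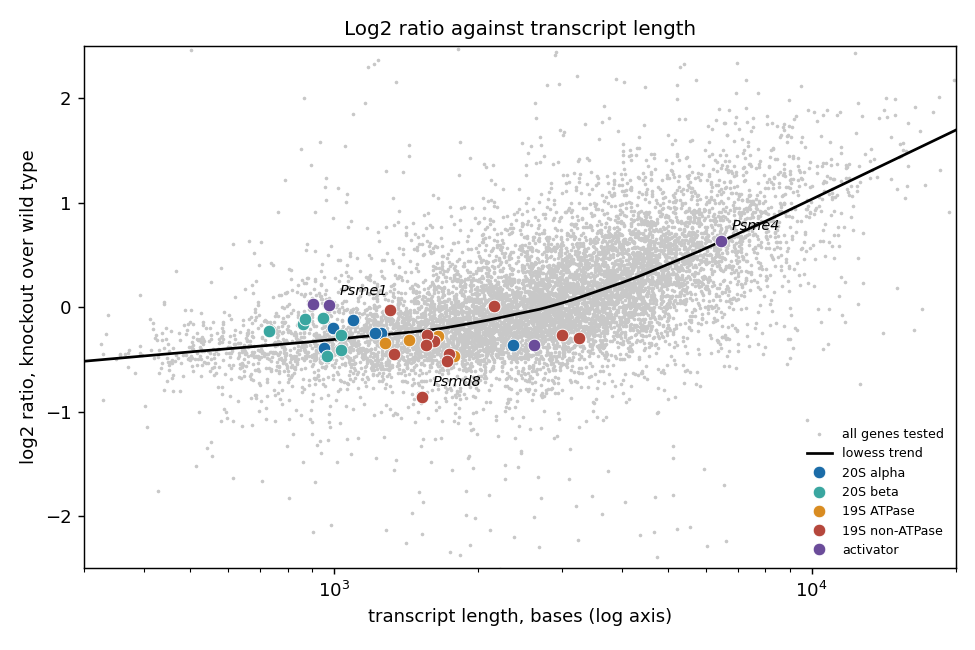
Log2 ratio of knockout over wild type (vertical axis) against transcript length in bases (horizontal, log axis) for the genes tested (grey), with the lowess trend (black line) and the 34 proteasome members in colour by subcomplex; 40 genes lie outside the plotted range. Most members lie on or near the trend, Psmd8 lies below it, Psme1 above it, and Psme4 lies on it at its long-transcript end.

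Summed over the 34 members, FPKM was 5325 in wild type and 5081 in knockout. That was 0.692% and 0.699% of the FPKM of all listed genes. Levels per length had nearly the same order in both libraries, with a Spearman rho of 0.995 across the 34 members. Core particle genes had higher levels than most regulatory particle genes. The 14 genes of the 20S core had a median FPKM of 158 in wild type and 172 in knockout, the 5 ATPases of the 19S particle 72.1 and 67.0, and its 11 non-ATPase subunits 42.6 and 41.0. Subunits that enter the particle in equal number thus differed in level per length, by 4.46-fold from the lowest to the highest alpha subunit and 5.05-fold among the beta subunits in wild type. The 5 ATPases were within 1.47-fold of each other.

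**Figure D2:**
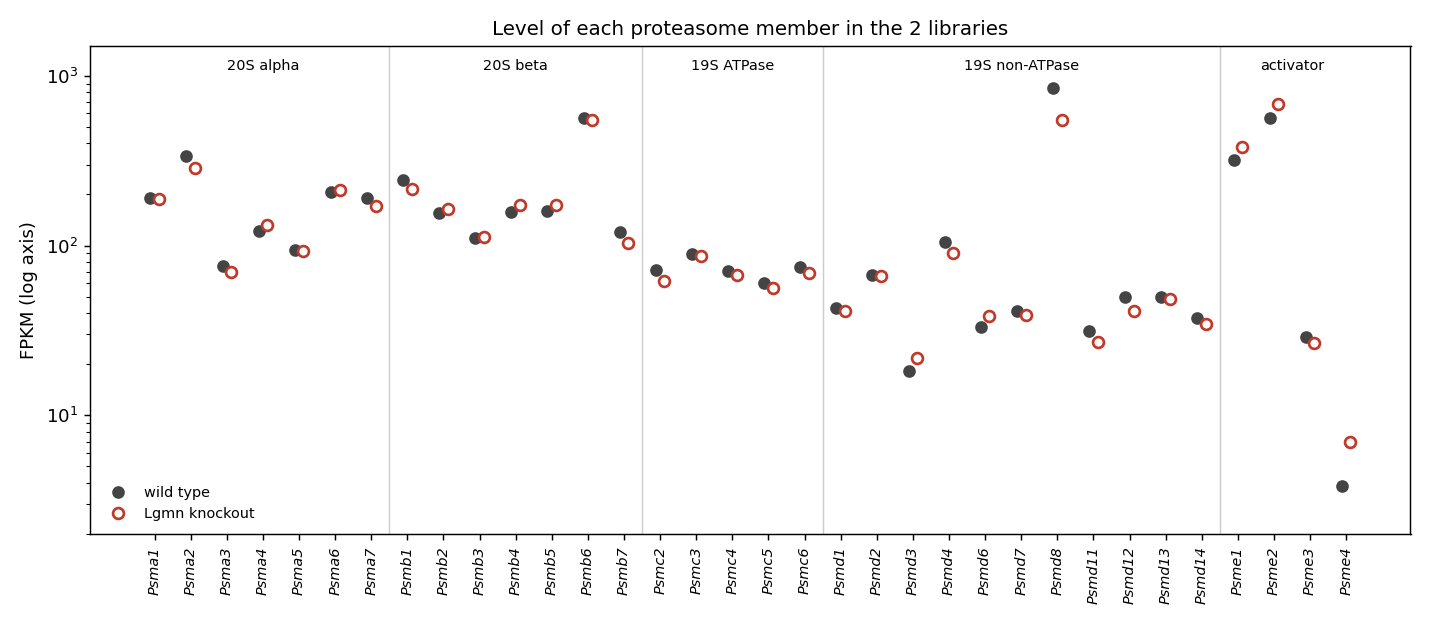
FPKM (log axis) of each of the 34 members in the wild type library (filled grey) and the Lgmn knockout library (open red), 1 library each, ordered by subcomplex. Filled and open points nearly coincide for most members, Psmd8 at 845 and 552 FPKM stands far above the other non-ATPase subunits shown, and Psme4 is lowest at 3.81 and 6.99.

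The alpha subunits form the outer rings of the core, gate its channel and dock the regulatory particle. All 7 had log2 ratios below 0, with a median of -0.25 and a range from -0.47 to -0.12. Psma2, the lowest, had 3826 estimated counts in wild type and 3219 in knockout, an FPKM of 338 and 288 and a log2 ratio of -0.47 (-0.54 to -0.40). Psma7 had an FPKM of 189 and 170.1 and a log2 ratio of -0.39 (-0.49 to -0.30). Both are short transcripts, and with the length trend subtracted their ratios were -0.15 and -0.08. At the other end, Psma4 had 1577 and 1689 counts, an FPKM of 122 and 132 and a log2 ratio of -0.12 (-0.22 to -0.02). Psma6 had 2413 and 2452 counts, an FPKM of 205 and 212 and a log2 ratio of -0.20 (-0.28 to -0.12). For Psma4 and Psma6 the raw counts were thus higher in the knockout library and the scaled counts lower. Psma1 and Psma5 lay at -0.25 each, with FPKM values of 191 and 189 and of 93.65 and 93.1. Psma3, counted over 3 transcripts, lay at -0.36 and had the lowest level of the alpha subunits, an FPKM of 75.7 and 69.5. Its annotated length of 2374 bases is the longest of the ring, and its ratio was -0.29 after length adjustment. The median of the 7 after adjustment was 0.01, with 3 below 0 and 4 above.

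The beta subunits form the inner rings. Psmb5, Psmb6 and Psmb7 carry the catalytic threonines of the constitutive core, for chymotrypsin-like, caspase-like and trypsin-like cleavage in that order, and the other 4 are structural. All 7 had log2 ratios below 0, with a median of -0.23 and a range from -0.47 to -0.10. Psmb7 had 1373 and 1157 counts, an FPKM of 120.4 and 103 and a log2 ratio of -0.47 (-0.58 to -0.35). Psmb5 had 1622 and 1746 counts, an FPKM of 159 and 173 and a log2 ratio of -0.11 (-0.21 to -0.02). Psmb6 was the most abundant core gene, with 6877 and 6653 counts, an FPKM of 563 and 552 and a log2 ratio of -0.27 (-0.32 to -0.22). The 3 catalytic subunits therefore did not share 1 ratio, and the intervals of Psmb5 and Psmb7 do not overlap. Of the structural subunits, Psmb1 had an FPKM of 243 and 216 and a log2 ratio of -0.41 (-0.49 to -0.33), the second lowest. Psmb4 had an FPKM of 158 and 174 and a log2 ratio of -0.10 (-0.20 to -0.01), the highest. Psmb2 and Psmb3 lay between, at -0.16 and -0.23. After length adjustment the median of the 7 was 0.14, with Psmb1 and Psmb7 below 0 and the other 5 above.

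Promoter sequence was read for 28 of the 34 members, which have 31 promoters in the RefSeq table of GRCm38.p6, over the 250 bases before each start site. Psmb1, Psmb2, Psmb7, Psmc3, Psmd3 and Psmd7 have no entry. The motifs searched, on both strands, were TGACNNNGC and TGAGNNNGC (the antioxidant response element that NRF1 and NRF2 bind), CCAAT (the NF-Y box), the interferon-stimulated response element (ISRE, here a pair of GAAA runs 2 bases apart) and TTCNNNGAA (a STAT site). TGACNNNGC was in 4 of 31 member promoters (12.9%), those of Psmb5, Psmb6, Psmc6 and Psmd12, and in 10.2% of all 32851 promoters. TGAGNNNGC was in 8 (25.8%) against 14.4% of all. CCAAT was in 10 (32.3%) against 33.9%. The ISRE was in 2 (6.45%), of Psmb3 and Psmd4, against 2.98%. TTCNNNGAA was in 0 of 31, against 7.02%. Matches of different motifs may overlap, and a match is a description of the letters. The promoters of Psmb3 and Psmb5 are shown because Psmb3 holds the most matches of the 4 beta subunit genes read and Psmb5 is a catalytic subunit gene with a TGACNNNGC match. Psmb3 (chr11:97703184-97703433, plus strand) has 2 CCAAT boxes, an ISRE match on the opposite strand and a TGAGNNNGC match that ends 2 bases before the start. Psmb5 (chr14:54617996-54618245, minus strand) has a TGACNNNGC match from 47 to 39 bases before it. No gene of the RefSeq table overlaps either window. Both run 5′ to 3′ toward the gene, with motif matches in capitals.
Psmb3: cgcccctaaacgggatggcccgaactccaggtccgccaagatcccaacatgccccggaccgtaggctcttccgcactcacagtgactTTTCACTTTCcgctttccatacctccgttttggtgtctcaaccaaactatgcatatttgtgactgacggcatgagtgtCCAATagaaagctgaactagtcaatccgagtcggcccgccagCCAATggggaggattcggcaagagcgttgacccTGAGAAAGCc
Psmb5: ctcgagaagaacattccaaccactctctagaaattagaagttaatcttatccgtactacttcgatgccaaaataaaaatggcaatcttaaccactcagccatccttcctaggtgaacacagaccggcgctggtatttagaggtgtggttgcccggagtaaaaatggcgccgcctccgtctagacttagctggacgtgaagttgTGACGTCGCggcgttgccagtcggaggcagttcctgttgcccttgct
The log2 ratios of these genes were -0.23 and -0.11, both within the range of the beta subunits.

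The 19S ATPases form the ring that unfolds the substrate and opens the core. They were the most uniform of the subcomplexes, with all 5 below 0, a median of -0.34 and a range from -0.46 to -0.28. Psmc2 had 1539 and 1300 counts, an FPKM of 72.1 and 61.8 and a log2 ratio of -0.46 (-0.57 to -0.36). Psmc6 had an FPKM of 74.4 and 68.9 and a log2 ratio of -0.35 (-0.46 to -0.24). Psmc4 and Psmc5 had log2 ratios of -0.32 and -0.34. Psmc3 had 1758 and 1690 counts, an FPKM of 89.0 and 86.8 and a log2 ratio of -0.28 (-0.38 to -0.18). The 5 intervals overlap one another. After length adjustment all 5 stayed below 0, between -0.28 for Psmc2 and -0.07 for Psmc3. Psmc1, the remaining ATPase of the ring and not in the list of 34, had an FPKM of 77.3 and 71.0 and a log2 ratio of -0.37 (-0.48 to -0.25).

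The non-ATPase subunits make up the scaffold, ubiquitin receptors and lid of the regulatory particle. Of 11, 10 had a log2 ratio below 0, and the median was -0.32. After length adjustment it was -0.20, the lowest of the 5 subcomplex medians, with 9 below 0. Psmd8, a lid subunit, stood apart from the other non-ATPase subunits of the list in level and in ratio. It had 15431 estimated counts in wild type and 9929 in knockout, an FPKM of 845 and 552 and a log2 ratio of -0.86 (-0.89 to -0.82), or 1.81-fold lower. The other 10 had FPKM values from 18.3 to 105 in wild type and from 21.8 to 90.4 in knockout. Against Psmd14, the lid's deubiquitinase, the FPKM of Psmd8 was 22.5 times higher in wild type and 16.0 times higher in knockout. Its log2 ratio was -0.63 after length adjustment and -0.62 with library totals, so it passed 1.5-fold there too. On these scales 6.33% and 2.67% of all genes were at least 1.5-fold lower. Psmd8 (Entrez 57296, chromosome 7, 29174187 to 29180673 in GRCm38) is overlapped by no other gene of the RefSeq table, and its counts were whole numbers in both libraries. Whether its counts include reads of similar sequence elsewhere was not tested, and its level, its ratio and the summed FPKM carry that limit. Without it the other members summed to an FPKM of 4480 and 4529. In that unit the sum was lower in the knockout library with Psmd8 and higher without it. FPKM is scaled to library size, and with 0.1 added its median log2 ratio over all genes was 0.23. With the main scaling, 29 of the 33 members without Psmd8 were below 0, with a median of -0.28.

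Psmd12, another lid subunit, had 1019 and 833 counts, an FPKM of 49.4 and 41.0 and a log2 ratio of -0.51 (-0.65 to -0.38), the next lowest after Psmd8. Psmd4, a ubiquitin receptor, had an FPKM of 105 and 90.4 and a log2 ratio of -0.45 (-0.56 to -0.35). Psmd11, of the lid, had an FPKM of 31.2 and 27.0 and a log2 ratio of -0.45 (-0.61 to -0.28). At the upper end were the lid subunits Psmd3 and Psmd6. Psmd3 had 477 and 561 counts, an FPKM of 18.3 and 21.8 and a log2 ratio of 0.01 (-0.17 to 0.19). Psmd6 had 517 and 592 counts, an FPKM of 33.1 and 38.5 and a log2 ratio of -0.03 (-0.20 to 0.15). Lid subunits thus lay at both ends of the group, and the intervals of Psmd12 and Psmd3 do not overlap. Psmd1 and Psmd2, the large scaffold subunits at the base, had log2 ratios of -0.29 and -0.27. Their transcripts of 3256 and 3000 bases are the longest of the core and regulatory particles, and length adjustment put them lower, at -0.38 and -0.30. Psmd7, Psmd13 and Psmd14, all of the lid, lay at -0.32, -0.27 and -0.37. The promoters of Psmd8 (chr7:29180674-29180923, minus strand) and Psmd12 (chr11:107479278-107479527, plus strand) are shown because these genes had the lowest ratios of the list. The window of Psmd12 holds a TGACNNNGC match on the opposite strand and a TGAGNNNGC match, in capitals, and that of Psmd8 has no match to the motifs searched.
Psmd8: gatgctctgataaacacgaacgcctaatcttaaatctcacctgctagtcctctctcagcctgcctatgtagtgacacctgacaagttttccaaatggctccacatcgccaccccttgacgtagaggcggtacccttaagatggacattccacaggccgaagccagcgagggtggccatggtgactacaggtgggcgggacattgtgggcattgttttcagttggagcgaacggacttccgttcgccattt
Psmd12: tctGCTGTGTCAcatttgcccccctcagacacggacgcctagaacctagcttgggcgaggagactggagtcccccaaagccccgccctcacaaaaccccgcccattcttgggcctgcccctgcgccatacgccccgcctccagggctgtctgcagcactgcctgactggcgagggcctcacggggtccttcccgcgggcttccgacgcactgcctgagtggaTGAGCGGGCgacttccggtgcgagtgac

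**Figure D3:**
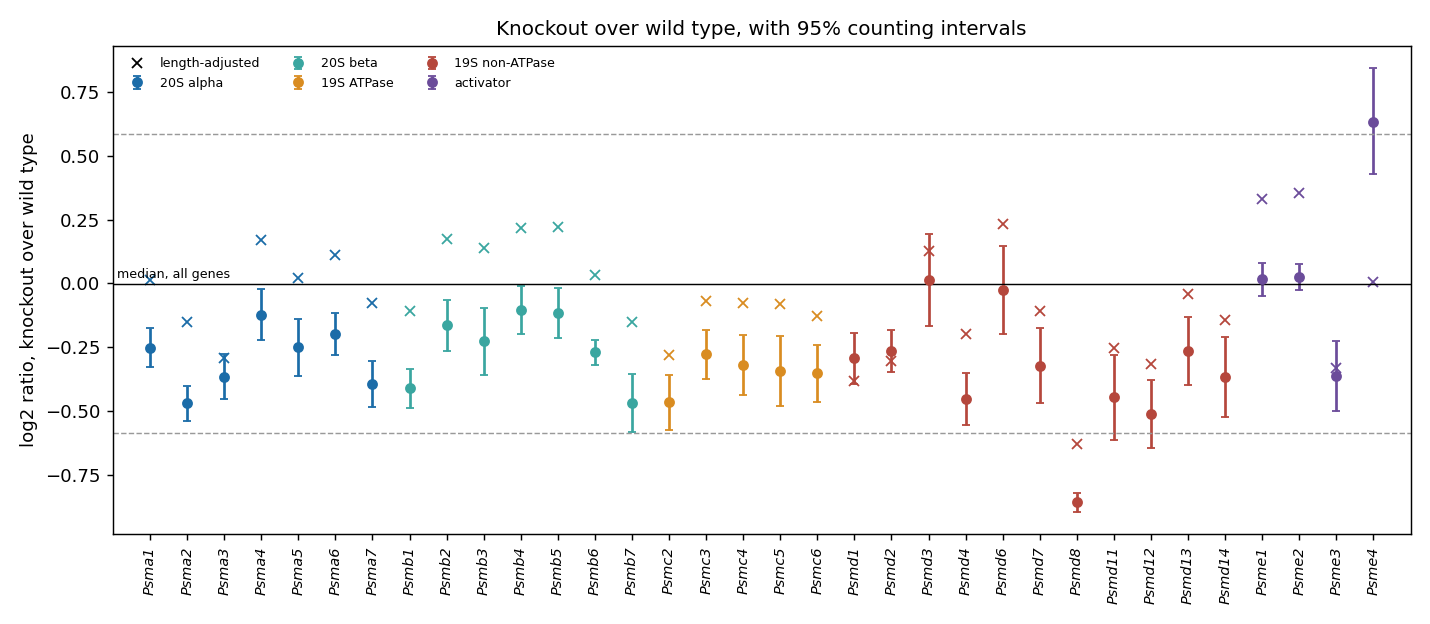
Log2 ratio of knockout over wild type for each member (points, coloured by subcomplex) with 95% counting intervals (bars), the length-adjusted ratio (crosses), the median of all genes tested (solid line) and 1.5-fold in either direction (dashed lines). Points of the 20S and 19S particles lie between -0.51 and 0.01 apart from Psmd8 at -0.86, while Psme1 and Psme2 lie at 0.02 and 0.03 and Psme4 at 0.63.

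The activators bind the ends of the core in place of the 19S particle and did not share 1 ratio. Psme1 and Psme2 encode the alpha and beta chains of PA28, which are induced by interferon gamma and form 1 mixed ring. Psme1 had 3654 counts in wild type and 4306 in knockout, an FPKM of 318 and 379.6 and a log2 ratio of 0.02 (-0.05 to 0.08). Psme2 had 6003 and 7123 counts, an FPKM of 565 and 679.8 and a log2 ratio of 0.03 (-0.02 to 0.08). Their FPKM ratio to each other was 0.562 in wild type and 0.558 in knockout. Both exceeded the median of the 34 members, by 0.30 and 0.31 on the log2 scale, and both intervals lay above those of 11 of the 14 core subunits, the exceptions being Psma4, Psmb4 and Psmb5. Length adjustment put them at 0.33 and 0.35, the highest of the list. They are neighbours on chromosome 14, and RSEM could divide reads between Psme2 and its copy Psme2b, which had 27 and 68 counts. The 2 genes summed gave a log2 ratio of 0.03.

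Psme3 encodes the nuclear PA28 gamma. It had 917 and 831 counts, an FPKM of 29.0 and 26.7 and a log2 ratio of -0.36 (-0.50 to -0.23), like that of the core and regulatory particles. Relative to Psme3 within each library, the counts of Psme2 were 1.31 times higher in the knockout library (1.18 to 1.45, 95% Woolf interval for counting error). Psme4 encodes PA200, a large nuclear activator linked to the degradation of acetylated histones. It was the member with the lowest level, an FPKM of 3.81 and 6.99, and had 299 and 541 counts. Its log2 ratio of 0.63 (0.43 to 0.84), or 1.55-fold higher, was 0.0039 after length adjustment. Its transcript of 6454 bases lies in the group of longest transcripts, whose median was 0.77. The promoters of Psme1 (chr14:55578244-55578493, plus strand) and Psme4 (chr11:30771525-30771774, plus strand) are shown as those of 1 chain of PA28 and of the activator with the highest log2 ratio, and neither window has a match to the motifs searched.
Psme1: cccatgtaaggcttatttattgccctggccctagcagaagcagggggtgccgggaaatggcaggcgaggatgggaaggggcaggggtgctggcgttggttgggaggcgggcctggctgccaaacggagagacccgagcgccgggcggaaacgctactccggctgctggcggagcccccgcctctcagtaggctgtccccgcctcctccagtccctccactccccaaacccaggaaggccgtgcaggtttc
Psme4: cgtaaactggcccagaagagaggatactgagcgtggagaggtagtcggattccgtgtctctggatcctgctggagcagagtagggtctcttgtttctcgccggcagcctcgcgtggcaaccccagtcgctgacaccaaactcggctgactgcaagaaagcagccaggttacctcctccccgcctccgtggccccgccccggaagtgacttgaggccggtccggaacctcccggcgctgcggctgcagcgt

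Each constitutive catalytic subunit has an immunoproteasome counterpart that takes its place in newly built cores: Psmb8 for Psmb5, Psmb9 for Psmb6 and Psmb10 for Psmb7. Ratios of FPKM within a library do not depend on the scaling between libraries. Psmb8 over Psmb5 was 2.90 in wild type and 2.76 in knockout. Psmb9 over Psmb6 was 0.339 and 0.419. Psmb10 over Psmb7 was 1.33 and 2.51. Only the last differed by more than 1.5-fold between the libraries, 1.89-fold by counts (1.72 to 2.07), with 1.23-fold (1.15 to 1.32) for Psmb9 over Psmb6 and 0.954-fold (0.885 to 1.03) for Psmb8 over Psmb5. With the main scaling both partners of the last pair contributed. Psmb7 had the lowest log2 ratio of its ring, at -0.47, and Psmb10 had 2416 and 3843 counts and a log2 ratio of 0.45 (0.37 to 0.52). Psmb8 lay at -0.18 and Psmb9 at 0.03, and none of the 3 passed 1.5-fold on this scale. Length adjustment put Psmb10 at 0.71, past 1.5-fold, Psmb9 at 0.38 and Psmb8 at 0.09, so that all 3 were above 0. Psmb10 also passed 1.5-fold with library totals, at 0.69, a scale on which 27.0% of all genes were at least 1.5-fold higher, against 7.74% after length adjustment. Psmb7 lay at -0.23 with library totals and at -0.15 after length adjustment. How the difference in this pair divides between Psmb10 and Psmb7 thus depends on the scaling.

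**Figure D4:**
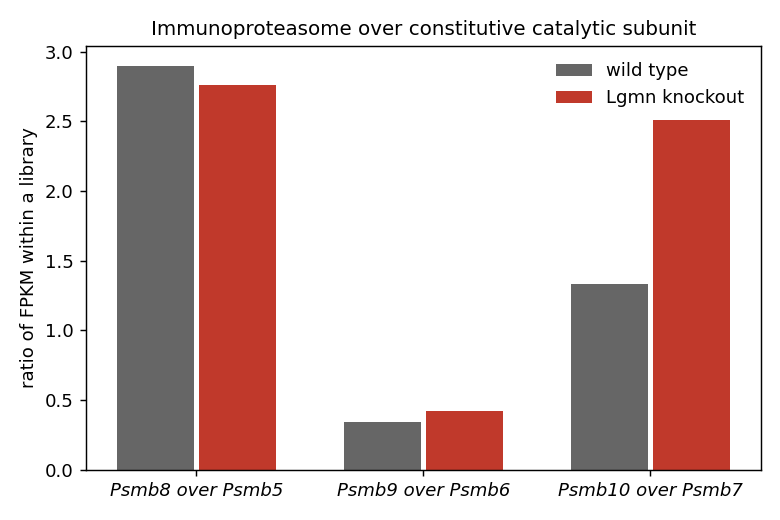
FPKM of each immunoproteasome subunit over that of its constitutive counterpart within the wild type library (grey bars) and the Lgmn knockout library (red bars), 1 library each. Bars are of near equal height for Psmb8 over Psmb5, at 2.90 and 2.76, while Psmb10 over Psmb7 is 1.33 in wild type and 2.51 in knockout.

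Genes that assemble, accompany or regulate the proteasome were read from lists of 49 genes, 48 of them in the files. Beside the counts at 1.5-fold given for these lists, 6.39% of all genes were lower and 16.4% higher. Of the 3 other constitutive subunits with enough counts, 0 passed 1.5-fold. Sem1, a small lid subunit, had an FPKM of 624 and 616 and a log2 ratio of -0.26 (-0.33 to -0.19), and Adrm1, a ubiquitin receptor, one of -0.09. The tissue-specific subunit genes Psma8, of the testis, and Psmb11, of the thymus, had at most 24 and 15 counts. Of 8 assembly chaperones 0 passed 1.5-fold, 7 were below 0, against 50.1% of all genes, and the median was -0.21. After length adjustment the median was 0.10, with 3 below 0 and 5 above. Pomp, which matures the core, was the most abundant, with an FPKM of 223 and 239.5 and a log2 ratio of -0.14 (-0.23 to -0.05). Psmg4, at 198 and 272 counts, had the highest log2 ratio of that list, 0.24, with an interval from -0.03 to 0.51, and at 0.65 it was past 1.5-fold after length adjustment.

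Proteasome-associated proteins numbered 13, and 0 passed 1.5-fold in either direction, where 6.39% of all genes were lower and 16.4% higher. Their median was -0.23, with 8 below 0, against 50.1% of all genes. After length adjustment the median was -0.19, with 11 below 0, against 51.1% of all genes. The lowest were Txnl1, a thioredoxin-like protein of the 19S particle, at -0.58 (-0.71 to -0.45), and the deubiquitinase Uchl5, at -0.54 (-0.72 to -0.36). Ubqln2, a shuttle for ubiquitinated proteins, was the highest at 0.49 (0.15 to 0.85), from 112 and 184 counts. Zfand5, with a transcript of 7385 bases, had a log2 ratio of -0.37 that became -1.12 after length adjustment.

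Of 12 transcription regulators of proteasome genes with enough counts, 9 were above 0 and 3 below, where 50.1% of all genes were below, with 0 past 1.5-fold and a median of 0.17. Nfe2l1, which encodes NRF1, the factor that raises proteasome genes when proteasome activity is low, had 634 and 824 counts, an FPKM of 11.6 and 15.8 and a log2 ratio of 0.16 (0.01 to 0.31). Ddi2, the protease that activates NRF1, lay at 0.43 (0.15 to 0.71), and Mafg, a partner of NRF factors, was the highest at 0.47 (0.15 to 0.80) and at 0.67 after length adjustment, which is past 1.5-fold. Nfe2l2, which encodes NRF2, was much more abundant, with an FPKM of 112 and 97.2, and had a log2 ratio of -0.44 (-0.51 to -0.37). Nfyb, a subunit of NF-Y, was the lowest, at -0.47 (-0.82 to -0.13). These transcripts are longer than those of the proteasome, with a median of 2863 bases, and after length adjustment 7 were above 0 and 5 below, Nfe2l1 at -0.15 among the latter.

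Ubb, which encodes ubiquitin as a chain of repeats, had 53564 and 43997 counts, an FPKM of 3278 and 2763 and a log2 ratio of -0.51 (-0.52 to -0.49). Uba1, the main ubiquitin-activating enzyme, had an FPKM of 27.9 and 32.2 and a log2 ratio of -0.04 (-0.14 to 0.07). After length adjustment Ubb lay at -0.25 and Uba1 at -0.28. Uba6, the alternative activating enzyme, was the only gene of the lists past 1.5-fold, 1.76-fold higher in the knockout library (1.36 to 2.29) at 90 and 185 counts. The transcript has 5101 bases, and length adjustment brought the log2 ratio from 0.81 to 0.39.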

How the data were processed

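Libraries were made for and read on BGISEQ-500, per the labels' protocols. Each file gives estimated counts and FPKM by Entrez gene, per the file headers, in RSEM's layout; the authors' FPKM is scaled to length and library, and their estimated counts are unscaled between libraries. Transcript length in bases was also deposited. HISAT2, Bowtie2, RSEM and mm10 are named in the submitters' processing notes, with no roles. Symbols came from the RefSeq table of GRCm38.p6, the assembly of mm10, which matched 15561 identifiers.

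Estimated counts were rounded and scaled with TMM factors of 0.921 (wild type) and 1.09 (knockout) from edgeR 4.0.16 in R 4.3.3. Genes with at least 50 counts in the higher library were compared. Length adjustment subtracted a lowess trend on log2 length with a span of 0.3 (statsmodels 0.14.6). Other settings were DESeq2 1.42.0 size factors, library totals, median centring, FPKM with 0.1 added, and other minimums, pseudocounts and spans. The fold, interval and length steps were run on simulated data with counting error only. The TMM scaling was left out of that run, so it was not tested there. Members and lists were chosen with earlier results of these data known. Named genes are the members, extremes of each subcomplex in full, their immunoproteasome counterparts, and the extremes of the pathway lists; a few more members of those lists were named after their values were seen. Some genes of the pathway lists are not reported here. Counts were whole, within 0.005, for 30 of 34 members. RefSeq gene bodies overlap 10 members, including Psme1 with Emc9 (209 and 131 counts), Psmd1 with Htr2b (312 and 274) and Psme4 with Erlec1 (471 and 473). Strand use is not stated in the labels, and whether such pairs share exon sequence was not tested. Counts of Psme1 and Psme4 were whole in both libraries, and those of Psmd1 were 1676.99 and 1595.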

Additional observations from a re-analysis of the deposited data

How the results depend on the processing

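No paired analysis was possible because each group has 1 library. The median log2 ratio of the 34 members, -0.29 in the report, was -0.047 with library totals, -0.044 with deposited FPKM, -0.076 with length adjustment (span 0.3) and -0.086 with a span of 0.6, chosen after seeing the data. With library totals the subcomplex medians were -0.014 (20S alpha), 0.012 (20S beta), -0.11 (19S ATPase), -0.083 (19S non-ATPase) and 0.26 (activators), and with FPKM they were -0.011, 0.014, -0.10, -0.081 and 0.26. Length adjustment gave 0.014, 0.14, -0.081, -0.20 and 0.17 in that order, and 0.0078, 0.14, -0.090, -0.21 and 0.17 with a span of 0.6. Members at least 1.5-fold higher numbered 0 after length adjustment. Pathway genes at least 1.5-fold higher, 1 of 45 in the report where 16.4% of all genes were, numbered 8 with library totals (27.0% of all genes) or FPKM (26.3%), 0 of 36 with a minimum of 200 counts (12.9%), 2 of 48 with none (22.6%) and 3 after length adjustment (7.74%), when 1 was lower (6.33%). Without length in the unit, Psmb8 over Psmb5 was 4.12 and 3.93, Psmb9 over Psmb6 0.261 and 0.322, and Psmb10 over Psmb7 1.76 and 3.32. The share of FPKM was 0.822% and 0.834% without the 6 genes of highest FPKM, 0.651% and 0.606% by counts, and 0.582% and 0.623% without Psmd8, chosen after seeing the data. With DESeq2 size factors, median centring and the other minimums and pseudocounts, the 34 member ratios stayed within their counting intervals. The cause of these shifts was not tested. Both libraries had similar depth, and intervals are widest for Psme4, the member with fewest counts.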
